A study of Mus musculus with 4 samples.

Results

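The cytosolic ribosomal protein genes were examined in whole testis RNA, as the 73 of 57010 measured identifiers that carried a protein-coding ribosomal protein symbol. Of these, 44 encode proteins of the large subunit (Rpl and Rplp symbols) and 29 proteins of the small subunit (Rps symbols and Rpsa), and they lie on 19 chromosomes. Pseudogenes were not counted as members, and the X-linked genes Rpl10, Rpl39 and Rps4x were left out by rule. All 73 members passed the filter on low counts and were among the 23023 genes tested.

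Male ICR mice, 8 weeks old at purchase, received a single intraperitoneal injection of busulfan (BUS, 30 mg/kg), an alkylating drug that kills dividing germ cells. In the ULA group, ursolic acid (ULA, 50 mg/kg), a plant triterpenoid, was given daily by gavage for 4 weeks, beginning 2 weeks after BUS. The BUS group received the same injection and the DMSO and corn oil vehicle instead of ULA, so both groups carried the BUS injury. Each group had 2 libraries, which the study calls biological replicates. The labels do not say whether they came from separate animals, so p-values measure the spread between these libraries only. Whole testis mixes germ cells with Sertoli, Leydig and other cells, and in such bulk RNA fewer cells of a type and less RNA per cell cannot be told apart.

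Each ribosomal protein occupies a single place in a ribosomal subunit, apart from the stalk proteins, and the proteins are needed in like amounts. In mammals most of their mRNAs begin with a C followed by a run of pyrimidines, the terminal oligopyrimidine (TOP) element, through which mTOR signalling controls their translation. Because these mRNAs are short and abundant in the germ line, their reverse-transcribed copies have left many processed pseudogenes in the genome, and several introns of the family host small nucleolar RNAs (snoRNAs).

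Of the 73 members, 53 had a window around the transcription start in the RefSeq promoter table (GRCm38.p6). A run of at least 8 pyrimidines beginning with C was sought on the coding strand, from 20 bases before to 10 after the start. It was present in 25 of these 53 genes (47.2%), counting any window of a gene, against 11.3% of all 27025 genes. The run could lie anywhere in this stretch, so it is not the same as a TOP element. In Rps15a it was 10 bases long and began at position -15 from the start. The letters CTCTTT occurred within 50 bases of the start on the coding strand in 34.0% of these members and 4.7% of all genes. For CTTTCC the shares were 34.0% and 5.4%. The letters CCGGAAG, searched on both strands of the whole 300-base window, occurred in 41.5% of these members and 9.9% of all genes. Overlap of these short motifs with each other and with the pyrimidine runs was not removed. The 30 bases around the start are shown for members with negative fitted changes (Rpl14, Rplp2, Rps10), with positive ones (Rps15a, Rpl27a) and for Rps6 and Rpl38, and Rpl10a is shown for a run of 7. Capitals mark the longest run of pyrimidines that begins with C, written 5′ to 3′ on the coding strand.
Rpl14: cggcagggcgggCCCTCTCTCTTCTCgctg
Rplp2: cccactgcgtcagcgtCTTCCTTTCgccgc
Rps10: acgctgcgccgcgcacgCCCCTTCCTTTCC
Rps6: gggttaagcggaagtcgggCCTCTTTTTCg
Rpl38: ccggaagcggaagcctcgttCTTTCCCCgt
Rps15a: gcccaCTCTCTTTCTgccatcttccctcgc
Rpl27a: cgcgagacttcgtgagCTCCTCCCTTTTCC
Rpl10a: gcgtggtggcgCCCCCCCagcggccgcaaa
The windows lie at Rpl14 chr9:120571497-120571526 (plus strand), Rplp2 chr7:141447631-141447660 (plus strand), Rps10 chr17:27635235-27635264 (minus strand), Rps6 chr4:86857358-86857387 (minus strand), Rpl38 chr11:114668560-114668589 (plus strand), Rps15a chr7:118116138-118116167 (minus strand), Rpl27a chr7:109519175-109519204 (plus strand) and Rpl10a chr17:28328451-28328480 (plus strand). A run of 8 or more was therefore found in members at both ends of the range of fold changes. The 25 members with such a run had a median log2 fold change of -0.31 (ULA over BUS) with 3 called lower. The 28 members with a promoter window but no such run had -0.37 with 5 called lower (edgeR adjusted p under 0.05). In the same fit 15.3% of all genes tested and 20.5% of protein-coding genes were called lower.

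The 4 libraries held 16312898 and 15078828 counts in the ULA group, against 18147335 and 18216380 in the BUS group. ULA library 2 stood apart, because 18.5% of its counts fell on 1 identifier with no symbol in the annotation, ENSMUSG00000119584. The same identifier took 7.88% of the counts in ULA library 1, against 0.00418% and 0.00064% in the BUS libraries. Protein-coding genes held 87.4% and 76.9% of the counts in the ULA libraries, against 96.9% and 96.3% in the BUS libraries. Markers of somatic cells and of late germ cells also moved with treatment. Levels are given in CPM, counts scaled to a common library size with TMM factors. All 9 Leydig cell markers were lower (edgeR adjusted p under 0.05), where 15.3% of all genes were called lower and 11.8% higher. Their summed levels were 1309 and 771 CPM in ULA libraries and 8614 and 5898 CPM in BUS libraries. Of 15 Sertoli cell markers 14 were lower (2396 and 1497 CPM in ULA, 7522 and 3849 CPM in BUS), and of 10 markers of condensing spermatids 8 were higher (11560 and 16950 CPM in ULA, 4714 and 6582 CPM in BUS). Without ULA library 2, 4 Sertoli cell markers were called lower and 1 marker of condensing spermatids higher. The 9 macrophage markers summed to 164 and 113 CPM in ULA and 504 and 126 CPM in BUS, with a median log2 fold change of -1.38. By edgeR 0 of the 9 were called, with 4 lower at an unadjusted p under 0.05, and by DESeq2 2 were lower (15.7% of all genes). With the replicate number as a block 5 were lower (25.6% of all genes), and with library size as the only scaling 7 (21.9%). With no filter beyond 1 count all 9 were lower (12% of all genes). Of the other marker lists, spermatogonia had 4 of 10 lower by edgeR and endothelium 3 of 7. Peritubular and smooth muscle had 5 of 7 lower and 1 higher. Round spermatids had 3 of 8 higher, and T and B cells 2 of 5 tested. Of 10 spermatocyte and 4 tested erythroid markers none was called. No marker of these lists was at 0 in every library. The part of cell composition in the results on ribosomal protein genes was not tested. For the unnamed identifier, a fit was run without Lars2, Gm15564 and all identifiers with no symbol. It called 11 members lower by edgeR (15.5% of all genes), the same 11 as with every identifier kept. The family's median log2 fold change was -0.29 in that fit. TMM factors are taken after extreme genes are trimmed, so this fit could differ little from the one with every identifier kept. The part of the identifier in the family's results was not tested.

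The family's share of the counts was lower in both ULA libraries. Its members held 0.783% and 0.599% of all counts in the ULA libraries, against 0.975% and 0.915% in the BUS libraries. Both ULA libraries lay below both BUS libraries, with a ratio of 0.731. An exact two-sided permutation test gave p = 0.333, the smallest value this test can give with 2 against 2 libraries. Taken over counts on protein-coding genes alone, the shares were 0.896% and 0.778% in ULA and 1.01% and 0.950% in BUS (ratio 0.855, exact two-sided permutation p = 0.333). The groups again did not overlap, and the log2 ratio shrank to -0.23, against -0.46 over all counts.

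**Figure D1:**
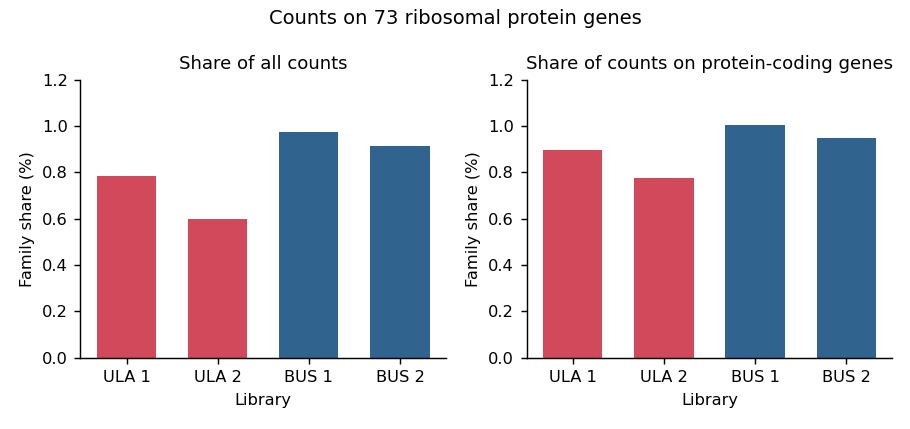
Share of each library's counts that fell on the 73 ribosomal protein genes, as percent of all counts (left) and of counts on protein-coding genes (right), with 1 bar per library. Both ULA bars are lower than both BUS bars in either panel, at 0.783% and 0.599% against 0.975% and 0.915% of all counts.

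The ratio of the subunits hardly differed between the groups. Levels in CPM summed over large subunit genes were 1.65 and 1.64 times those of small subunit genes in the ULA libraries, and 1.65 and 1.63 times in the BUS libraries. Over the whole family the summed level was 7708 and 7137 CPM in ULA, against 9289 and 8184 CPM in BUS.

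At the level of single genes, 11 of the 73 members fell after ULA and none rose, by edgeR's quasi-likelihood test with Benjamini-Hochberg adjustment over all genes tested (adjusted p under 0.05). The 11 make up 15.1% of the family, and among all genes tested 15.3% were called lower and 11.8% higher. The share of lower calls was near the background in this fit, and below the 20.5% of protein-coding genes called lower. How the 2 shares compared depended on the fit. With an offset for GC content and length 18 members were called lower (24.7%, against 12.8% of all genes), and with no filter beyond 1 count also 18 (24.7%, against 12%). With upper-quartile scaling there were 2 (2.74%, against 10.3%), and with protein-coding genes scaled and tested alone 3 (4.11%, against 13.9%). No member was higher at an unadjusted p under 0.05 either, and none was called higher by DESeq2 or limma-voom. Of all genes tested, 4623 were higher at that unadjusted p. All members are protein-coding, and among protein-coding genes 6.94% were called higher at the adjusted p, against 11.8% of all genes. The remaining 62 members passed in neither direction. The fitted log2 fold changes were negative for 60 members and positive for 13, ran between -1.91 and 0.37 and had a median of -0.30, against 0.02 over all genes tested and -0.22 over protein-coding genes. At a 1.5-fold change with an unadjusted p under 0.05, the threshold named in the study's results, 16 members were lower and none higher (22.7% of all genes were lower). In CPM, both ULA libraries lay below both BUS libraries for 44 members (37.2% of all genes) and above both for 7 (37.9% of all genes).

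The count of calls changed when single libraries were left out. Such a fit holds 1 library in an arm and takes the spread from the other group alone, and the standard error of Rps3 was 0.48 without ULA library 2, against 0.23 with all libraries. Without ULA library 2 none of the 73 members was called lower (2.93% of all genes), without ULA library 1 there were 5 lower calls (10.5% of all genes), and without BUS library 2 there were 25 (26.4% of all genes). Without BUS library 1 there were 9 lower calls (12.1% of all genes), and Rpl30 was called higher. All 11 genes kept a negative fold change in each of these fits. The 2 calls under upper-quartile scaling were Rps3 and Rpl10a, and the 3 with protein-coding genes alone were Rps3, Rpl10a and Rplp2.

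**Figure D2:**
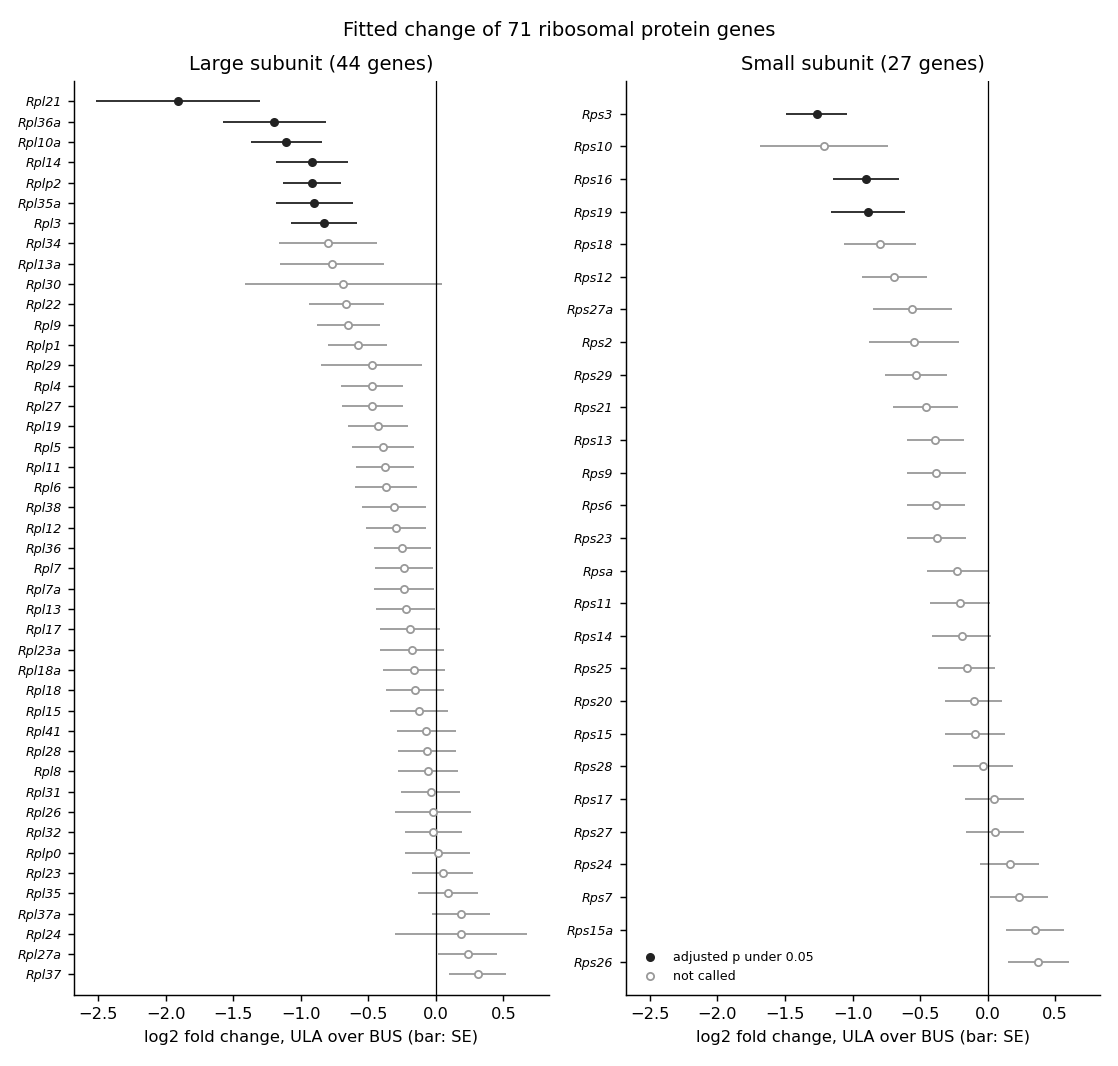
Fitted log2 fold change (ULA over BUS, x axis) with its standard error for 44 large subunit genes (left) and 27 small subunit genes (right), ordered by size, with filled points for an adjusted p under 0.05. The 10 filled points lie between -1.91 and -0.83, and most open points lie within 1 log2 unit of 0 and left of it.

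Large subunit genes had 7 lower calls (15.9%) and a median log2 fold change of -0.27. Small subunit genes had 4 lower calls (13.8%) and a median of -0.38. Neither subunit had a higher call. The 27 members with snoRNA genes in their introns (54 snoRNAs in all) had 6 lower calls (22.2%) and a median of -0.37. The 46 other members had 5 lower calls (10.9%) and a median of -0.24. The same fit called 15.3% of all genes tested and 20.5% of protein-coding genes lower. Differences between these subsets were not tested.

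Rps3, a small subunit protein at the mRNA entry channel that also has a described role in DNA repair, had the smallest adjusted p of the family. It lies at chr7:99477896-99483738 (GRCm38, minus strand). Its level was 66.9 and 58.8 CPM in ULA libraries, against 165 and 137 CPM in BUS libraries. The groups were far apart relative to the spread within each. Its fold was 0.416 (log2 fold change -1.27, SE 0.23, adjusted p = 0.00838 by edgeR's quasi-likelihood test). Without ULA library 2 the log2 fold change stayed at -1.16, with an SE of 0.48 and an adjusted p of 0.144. Of its coding 50-base stretches 91.9% occur in no transcript of another gene, which sets Rps3 apart from most of the family.

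Rpl10a, a protein of the mobile L1 stalk of the large subunit, lies at chr17:28328471-28331033 (plus strand). It had 64.5 and 42.4 CPM in ULA libraries, against 125 and 106 CPM in BUS libraries. Both ULA values were well below both BUS values, and ULA library 2 was the lowest. Its log2 fold change was -1.11 (SE 0.26, edgeR adjusted p = 0.0183), and -0.82 with an adjusted p of 0.328 without ULA library 2.

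The ribosomal stalk, which recruits the elongation factors, gave unequal values for its 3 proteins. Rplp2 had 56.5 and 53.3 CPM in ULA libraries, against 109 and 98.7 CPM in BUS libraries. The groups did not overlap, and the fall was called (log2 fold change -0.92, SE 0.22, edgeR adjusted p = 0.0179). Rplp1, the partner of Rplp2 in the stalk dimer, had 110 and 109 CPM in ULA libraries, against 175 and 153 CPM in BUS libraries. Its groups did not overlap either, but the log2 fold change of -0.58 did not pass (SE 0.22, edgeR adjusted p = 0.0728). Rplp0, the base of the stalk and the member with the highest level, had 685 and 711 CPM in ULA libraries and 705 and 678 CPM in BUS libraries. Its groups overlapped (log2 fold change 0.01, SE 0.24, edgeR adjusted p = 0.968). Differences between the 3 genes were not tested. Without ULA library 1 or 2 the log2 fold change of Rplp2 stayed at -0.95 or -0.86, while the SE was 0.47 in both fits and the call was lost (edgeR adjusted p 0.152 or 0.303). Under upper-quartile scaling the fold change was -0.63 (adjusted p = 0.0602).

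Among proteins with a described role in human bone marrow failure, Rps19, the gene most often mutated in Diamond-Blackfan anaemia, had 49.6 and 32.0 CPM in ULA libraries, against 84.2 and 66.8 CPM in BUS libraries. ULA library 2 was the lowest, and the groups did not overlap (log2 fold change -0.89, SE 0.27, edgeR adjusted p = 0.0417, and 0.0570 or 0.508 without ULA library 1 or 2). Rps14, which lies in the region lost in the human deletion syndrome of the long arm of chromosome 5, had 233 and 214 CPM in ULA libraries and 263 and 248 CPM in BUS libraries. It was not called (log2 fold change -0.19, SE 0.22, edgeR adjusted p = 0.518). Rpl5 and Rpl11, which bind the ubiquitin ligase Mdm2 when ribosome assembly fails, had log2 fold changes of -0.39 and -0.38, and neither passed (edgeR adjusted p 0.218 and 0.206).

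Rpl14 and Rpl3 also fell. Rpl14, a large subunit protein, had 60.6 and 41.2 CPM in ULA libraries, against 109 and 83.8 CPM in BUS libraries (log2 fold change -0.92, SE 0.26, edgeR adjusted p = 0.0341). Rpl3, which reaches into the peptidyl transferase centre, had 88.1 and 66.2 CPM in ULA libraries, against 154 and 120 CPM in BUS libraries (log2 fold change -0.83, SE 0.25, edgeR adjusted p = 0.0377). In both genes ULA library 2 was the lowest and BUS library 1 the highest, without overlap of the groups. Without ULA library 1 or 2 the adjusted p of Rpl14 was 0.0599 or 0.457 and that of Rpl3 0.117 or 0.486. Rps16 and Rpl35a, which fell too and are named after their values were seen, both had a log2 fold change of -0.90 (edgeR adjusted p 0.0288 for Rps16 and 0.0442 for Rpl35a). Their calls were likewise lost without either ULA library, with adjusted p between 0.0987 and 0.448.

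Rpl36a, the single member on the X chromosome (chrX:134585654-134588062, plus strand), had 9.60 and 5.61 CPM in ULA libraries, against 22.1 and 13.0 CPM in BUS libraries. The groups did not overlap, although library 2 was lower than library 1 in each (log2 fold change -1.20, SE 0.38, edgeR adjusted p = 0.0452). The call was lost without ULA library 2 (log2 fold change -0.85, adjusted p = 0.376) and without BUS library 1 (-0.78, adjusted p = 0.0825). The X-linked ribosomal protein genes outside the set, Rpl10, Rps4x and Rpl39, had log2 fold changes of -1.57, -1.82 and -1.90 (edgeR adjusted p 0.0158, 0.00935 and 0.00849). Their copies that are expressed in the testis were not called. Rpl10l, an intronless copy of Rpl10 needed in mouse spermatocytes, had 127 and 164 CPM in ULA libraries and 75.4 and 116 CPM in BUS libraries (log2 fold change 0.60, edgeR adjusted p = 0.118). Rpl39l, a copy of Rpl39, and Rps4l, a copy of Rps4x that the annotation classes as a transcribed processed pseudogene, had log2 fold changes of 0.33 and 0.35 (edgeR adjusted p 0.333 and 0.274). Rpl36al, the autosomal copy of Rpl36a, fell with it (log2 fold change -1.52, edgeR adjusted p = 0.0337) at levels of 0.905 and 0.949 CPM in ULA libraries and 2.26 and 3.09 CPM in BUS libraries.

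Rpl21, a large subunit protein, had the largest fitted fall of the family, and it rested on 1 library. It had 64 and 36 counts in ULA libraries, against 394 and 96 counts in BUS libraries, which is 3.86 and 2.85 CPM against 20.7 and 4.71 CPM. BUS library 1 was far above the other 3 libraries, and BUS library 2 lay close to the ULA libraries. The log2 fold change was -1.91 (SE 0.61, edgeR adjusted p = 0.0455), and -0.50 with an adjusted p of 0.403 without BUS library 1. It was -1.68 with an adjusted p of 0.0634 without ULA library 2. Rps10, a protein of the head of the small subunit, had a fold change of similar size to Rpl36a but did not pass, with 2.60 and 1.66 CPM in ULA libraries against 6.82 and 3.14 CPM in BUS libraries (log2 fold change -1.21, SE 0.47, edgeR adjusted p = 0.0830).

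**Figure D3:**
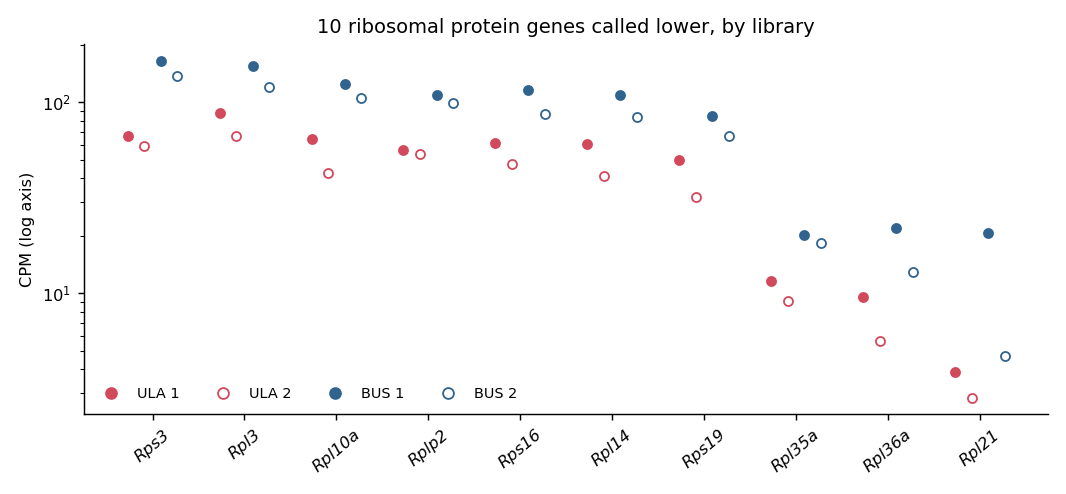
CPM on a log axis of 10 ribosomal protein genes called lower, with 1 point per library (ULA libraries at the left of each gene, BUS libraries at the right, library 1 filled and library 2 open). In every gene both ULA points lie below both BUS points, and for Rpl21 the gap between 3.86 CPM (ULA 1) and 4.71 CPM (BUS 2) is small.

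The 6 largest positive fold changes belonged to Rps26, Rps15a, Rpl37, Rpl27a, Rps7 and Rpl24, and none passed the test. With an offset for GC content and length 5 of the 6 turned negative, with log2 fold changes of -0.13 for Rps26, -0.12 for Rpl37, -0.040 for Rpl27a, -0.069 for Rps7 and -0.16 for Rpl24, and Rps15a stayed positive at 0.30. Rps26, a small subunit protein at the mRNA exit channel, had 91.6 and 113 CPM in ULA libraries and 84.3 and 73.8 CPM in BUS libraries (log2 fold change 0.37, SE 0.23, edgeR adjusted p = 0.229). Rps15a, another small subunit protein, had 136 and 122 CPM in ULA libraries and 107 and 94.6 CPM in BUS libraries (log2 fold change 0.35, SE 0.22, edgeR adjusted p = 0.238). For Rps26, Rps15a, Rpl37, Rpl27a and Rps7 both ULA libraries lay above both BUS libraries, with log2 fold changes between 0.23 and 0.37. Rpl24, a large subunit protein, rested on 16 and 8 counts in ULA libraries and 14 and 14 in BUS libraries (log2 fold change 0.19, SE 0.49, edgeR adjusted p = 0.787).

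Like Rplp0, the next most abundant members did not pass. Rpl4, which lines part of the peptide exit tunnel, had 281 and 245 CPM in ULA libraries and 384 and 347 CPM in BUS libraries (log2 fold change -0.47, SE 0.23, edgeR adjusted p = 0.141). Its groups did not overlap. Rpl13, Rpl8 and Rps24 had log2 fold changes of -0.22, -0.06 and 0.16, and the groups overlapped for Rpl8. Upper-quartile scaling gave 0.063 for Rpl13 and 0.23 for Rpl8, and the offset for GC content and length gave -0.11 for Rps24, so that their signs depended on the fit. Rps6, the classic substrate of the S6 kinases, had 149 and 140 CPM in ULA libraries and 195 and 181 CPM in BUS libraries (log2 fold change -0.38, SE 0.21, edgeR adjusted p = 0.198). Rpsa, also known as a laminin-binding protein, had 203 and 182 CPM in ULA libraries and 248 and 202 CPM in BUS libraries, and ULA library 1 just exceeded BUS library 2.

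Of the other members chosen for their roles, none was called in the edgeR fit, although Rps27a and Rpl22 were called lower with the offset for GC content and length (log2 fold changes -1.10 and -1.34, edgeR adjusted p 0.0407 and 0.0191). Rps27a, which is made as a fusion with ubiquitin, had 58.1 and 54.5 CPM in ULA libraries and 107 and 59.0 CPM in BUS libraries, so that BUS library 1 alone stood high (log2 fold change -0.56, edgeR adjusted p = 0.171). Rpl13a, known for an extraribosomal role in silencing inflammatory mRNAs, had 4.83 and 4.03 CPM in ULA libraries and 9.76 and 5.40 CPM in BUS libraries (log2 fold change -0.77, edgeR adjusted p = 0.153). Rpl22, which is dispensable for most mouse cells but not for T cell development, had a log2 fold change of -0.66 (edgeR adjusted p = 0.0993, and 0.0378 with no filter beyond 1 count), and its paralog Rpl22l1 had -0.14. Rpl38, which is needed for the translation of Hox mRNAs in the mouse embryo, had -0.31 (edgeR adjusted p = 0.337). Rpl41, the smallest ribosomal protein, had -0.07 (0.22 with upper-quartile scaling). Rpl29, among the 3 members with the lowest mean CPM, had 2.35 and 2.85 CPM in ULA libraries and 3.88 and 3.34 CPM in BUS libraries (log2 fold change -0.48, edgeR adjusted p = 0.344).

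Per kilobase of transcript, the members spanned 1.12 CPM per kb for Rpl24 to 512 CPM per kb for Rplp0, with a median of 110. These values also depend on how reads shared with pseudogenes or overlapping genes were assigned, and on the annotated transcript length. They therefore compare levels between genes only roughly. For Rpl24, 0% of the coding 50-base stretches occur in that gene alone, and Rps15a has a transcript of 5179 bases for 390 coding bases. The order of the members by level was largely kept between libraries. Spearman's rho over the 73 members was 0.982 between the ULA libraries, 0.980 between the BUS libraries and 0.878 to 0.931 between a ULA and a BUS library, over genes that share a library and are not independent. The log2 fold change correlated weakly with the mean log2 CPM of a member (r = 0.38, rho = 0.39 over 73 members) and hardly with transcript length (r = 0.02, rho = 0.04) or GC content (r = -0.17, rho = -0.20). Levels enter both sides of the first of these.

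The members were also expressed as a share of the family's own counts, a measure that needs no scaling factor. These shares sum to the whole in each library, so a lower share of some members goes with a higher share of others by construction. Rps3 made up 0.868% and 0.823% of the family in ULA libraries, against 1.77% and 1.68% in BUS libraries. Rps15a made up 1.76% and 1.70% in ULA libraries, against 1.15% and 1.16% in BUS libraries. The spread between libraries of a group was small beside either difference. Rplp0, whose CPM overlapped between the groups, made up 8.89% and 9.96% in ULA libraries against 7.59% and 8.29% in BUS libraries. With each library scaled to the summed counts of the family, a fit chosen after seeing the data, Rpl21, Rps3 and Rpl10a were called lower (edgeR adjusted p 0.0478, 0.0144 and 0.0309) and no member higher. That is 4.11% of the family, where 11.3% of all genes were called lower and 16.2% higher in the same fit. The smallest adjusted p among positive changes was 0.0871, for Rps26.

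**Figure D4:**
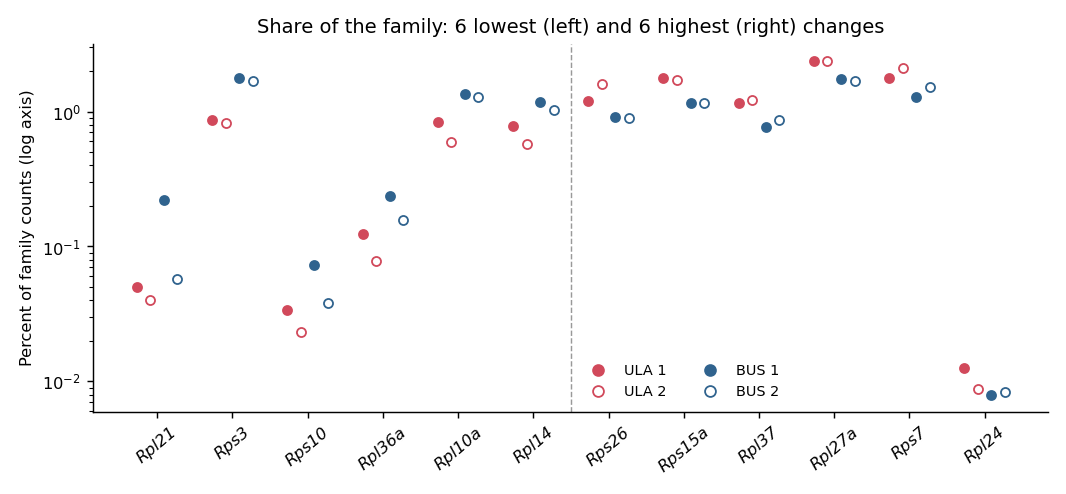
Share of the family's counts (percent, log axis) in each library for the 6 members with the lowest fold changes (left of the dashed line) and the 6 with the highest (right), with ULA libraries left of BUS libraries and library 2 as open points. Rps3 had 0.868% and 0.823% in ULA against 1.77% and 1.68% in BUS, and Rps15a 1.76% and 1.70% in ULA against 1.15% and 1.16% in BUS.

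Processed pseudogenes limit what the counts of a member can show. Of the 73 members, 72 share at least 1 stretch of 50 coding bases with an annotated pseudogene, 1049 pseudogene matches in all, and for 62 members at most 50% of such stretches occur in that gene alone. The 11 members with over 50% of their stretches unique had 1 lower call (Rps3, 9.09%) and a median log2 fold change of -0.38. The 62 others had 10 lower calls (16.1%) and a median of -0.27. Of all genes tested 15.3% were called lower, and of protein-coding genes 20.5%. With 11 genes in 1 subset, the difference in calls was not tested.

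For some members a gene and its pseudogene differed in opposite directions between the libraries of a group. Rpl30, singled out after its values were seen, had 832 and 167 counts in ULA libraries and 1648 and 324 counts in BUS libraries. Its processed pseudogene Gm12191 had 541 and 749 counts in ULA libraries and 26 and 1391 counts in BUS libraries. The gene was high where the copy was low, in library 1 of each group. The log2 fold change of Rpl30 was -0.69 (SE 0.73, edgeR adjusted p = 0.485), 0.99 without BUS library 1, -1.93 without ULA library 1, -1.45 without BUS library 2 and -0.08 with the counts of its copies added (adjusted p = 0.788). The same held for Rpl21 in the BUS libraries, as its copy Gm10095 had 7 and 1 counts in ULA libraries and 0 and 606 in BUS libraries. With the counts of its copies added, Rpl21 had a log2 fold change of -1.16 (adjusted p = 0.0112), and the call of Rps3 was kept (-1.26, adjusted p = 0.00811). Of the 11 calls 9 were kept with these copies added, and Rpl35a and Rpl36a were lost. With the pseudogenes named after a member added instead, 8 of the 11 were kept, and Rpl21 was lost as well (-1.28, adjusted p = 0.108).

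**Figure D5:**
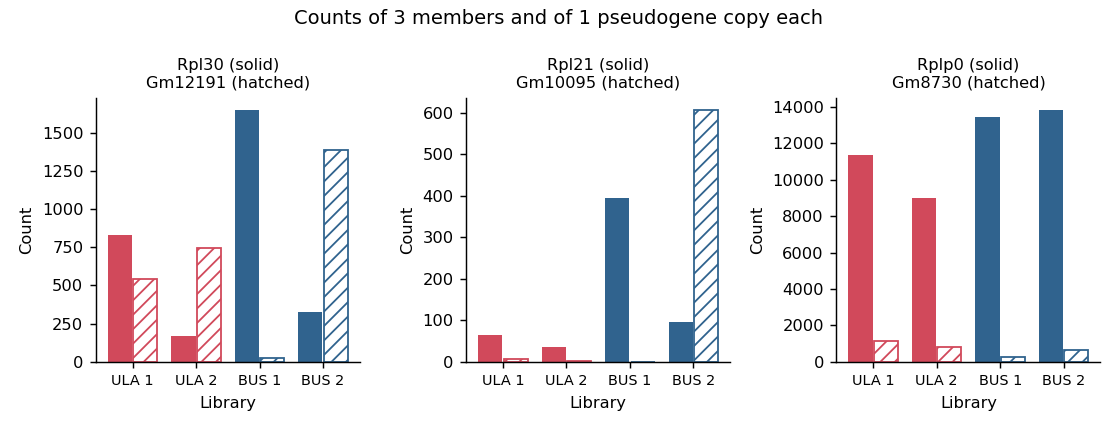
Counts per library of Rpl30, Rpl21 and Rplp0 (solid bars) and of a processed pseudogene of each (hatched bars), with ULA libraries left of BUS libraries. Rpl30 had 1648 and Gm12191 26 counts in BUS library 1, against 324 and 1391 in BUS library 2, whereas Rplp0 exceeded Gm8730 in all 4 libraries.

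A few members overlap another annotated gene that shares coding stretches with them, among them Rpl13a (Gm45713), Rpl24 (Gm28037), Rps10 (RPS10-NUDT3) and Rpl35 (Wdr38), and their counts are uncertain for that reason too. Of ribosomal protein genes whose symbols fall outside the rule, Rps3a1 (log2 fold change -0.91, edgeR adjusted p = 0.0242) and Fau, which encodes a small subunit protein fused to a ubiquitin-like domain (-0.70, adjusted p = 0.0392), fell.

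Other genes of translation and its control were counted in the same fit. Of 77 tested genes for mitochondrial ribosomal proteins, which form the separate ribosome of that organelle, 16 were lower and none higher by edgeR, with a median log2 fold change of -0.46. Leaving out 1 library gave 0 lower calls without ULA library 2, 4 without ULA library 1, 13 without BUS library 1 and 33 lower and 2 higher without BUS library 2, and upper-quartile scaling gave 4 lower and 2 higher. At an unadjusted p under 0.05, 30 were lower and 2 higher. Mrpl14 had 2.41 and 1.74 CPM in ULA libraries, against 8.71 and 6.68 CPM in BUS libraries, and Mrps24 had a log2 fold change of -1.47. Among 22 elongation factors and other genes with TOP mRNAs, 4 were lower and none higher, and the median was -0.02. Eef1b2, an exchange factor of elongation, fell (log2 fold change -0.79), as did the X-linked initiation factor gene Eif2s3x (-1.55).

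Of 54 genes for ribosome assembly and rRNA synthesis, 7 were lower and 2 higher, with a median of -0.30. Ubtf, a factor of RNA polymerase I, had 79.3 and 43.3 CPM in ULA libraries, against 219 and 115 CPM in BUS libraries (log2 fold change -1.45). Tsr2, the escort of Rps26 in yeast and human cells, fell by 1.32 on the log2 scale, whereas Mdn1, an ATPase that remodels large subunit precursors, had 246 and 254 CPM in ULA libraries against 114 and 145 CPM in BUS libraries and rose (log2 fold change 0.95). Polr1d, a subunit shared by RNA polymerases I and III, also rose (0.87). Of 11 chaperones and sensors of ribosomal proteins only Zfp598, a ubiquitin ligase for collided ribosomes, was called (-0.72), and the median was -0.40. Of 16 genes that control translation of TOP mRNAs, Eif4ebp2 (-1.53), an mTOR substrate that restrains initiation, and Rps6kb2 (-1.64), an S6 kinase, were lower, none was higher, and the median was -0.45.

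The proteasome, a housekeeping complex of many small subunits, served for comparison. Of its 47 tested genes 11 were lower and 1 higher, with a median log2 fold change of -0.39. Psma7, a subunit of the catalytic core, fell by 2.04 on the log2 scale, and Psme2, a subunit of the interferon-induced activator, fell by 1.99. Psme4, the activator subunit abundant in the testis, rose (log2 fold change 1.06). The counts of calls in the lists named here can be read against the 15.3% of all genes called lower and 11.8% called higher. Among protein-coding genes tested, 20.5% were called lower and 6.94% higher in the same fit.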

How the data were processed

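Total RNA of mouse testis was sequenced on a BGI platform in 2 ULA and 2 BUS libraries. The deposited values are raw counts for each Ensembl identifier, to which the authors applied no normalization. Their methods name Fastp, STAR, GRCm38 and FeatureCounts, and the submitters' processing notes name RSEM 1.3.1. Which of these tools produced the whole-number table, with what strand setting and what rule for multi-mapping reads, is not stated in the sources used here. No batch is given in the labels. The headers of the ULA counts carry a letter A that no source used here explains, and those of the BUS counts do not.

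Members were found by symbol in GENCODE M21 (GRCm38), and 52081 of 57010 identifiers had a symbol. The members and lists were chosen with earlier results of these data known. After filterByExpr (count of 10, total of 15) and TMM scaling, ULA was compared with BUS in edgeR 4.0.16 in R 4.3.3 (quasi-likelihood, Benjamini-Hochberg over 23023 genes, threshold 0.05). The fit had a biological coefficient of variation of 0.242, on 2 residual and, at the median, 7.18 prior degrees of freedom. A count of 3 corresponded to 0.181 and 0.237 CPM in ULA libraries and 0.157 and 0.147 CPM in BUS libraries. Steps were tested on simulated data. Sequence shared with pseudogenes was counted as coding stretches of 50 bases.

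Some genes are not reported here. Members named with values were the 6 with the lowest and the 6 with the highest fold change, the 6 with the highest and the 3 with the lowest mean CPM, any called higher, and a set chosen for their roles. From each list outside the family the 2 genes with the smallest p in each direction were eligible. Alternatives were other scalings, DESeq2 1.42.0, limma-voom (limma 3.58.1), other filters and thresholds, a block for the replicate number, each library left out in turn, protein-coding genes alone, a smooth offset for GC content and length (mgcv 1.9.3), and pseudogene counts added. Adding copies by shared sequence and scaling to the family were chosen after seeing the data. Counts of pseudogenes cannot be told apart from those of their genes where reads map to both.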

Additional observations from a re-analysis of the deposited data

How the results depend on the processing

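The count of 11 lower calls in the family was within 1.5 times under RLE factors (11), DESeq2 (11) and library size alone (16). It was also within that range with 10 counts in every library (8) and either way of adding pseudogenes (9). The adjusted p with a fold over 1.5 gave 11 too, but could not differ. That cut removed none of the 3512 lower and 2706 higher calls among all genes. The family's count was 2 with upper-quartile factors (2.74%, against 10.3% of all genes), 7 with limma-voom (9.59%, against 12%) and 18 with no filter beyond 1 count (24.7%, against 12%). It was 3 with protein-coding genes alone (4.11%, against 13.9%) and 18 with an offset for GC content and length (24.7%, against 12.8%). When scaled to the summed counts of the family it was 3 (4.11%, against 11.3%). Leaving out 1 library gave 0 to 25 lower calls and 0 to 1 higher, with 0 to 15 for the large and 0 to 10 for the small subunit. The 7 large subunit calls became 1 with upper-quartile factors, 4 with limma-voom, with 10 counts in every library and with named pseudogenes added, 11 without the filter, and 2 with protein-coding genes alone and on the family scale. The 4 small subunit calls became 1 with upper-quartile factors, protein-coding genes alone and the family scale, 7 with library size, without the filter and at the fold of 1.5 with an unadjusted p, and 9 with the offset. The cause of these differences was not tested.

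Scaling moved the median of all genes, which was 0.02, to 0.31 with upper-quartile factors, -0.20 with library size and 0.25 on the family scale. The family's median was -0.003, -0.52 and -0.055 in these fits and differed from that of all genes by -0.31 in each. Such scalings shift all genes by a like amount, so this difference is nearly fixed by construction. The median of protein-coding genes lay nearer the family's, at 0.061 with upper-quartile factors and -0.45 with library size. With protein-coding genes alone scaled and tested, the family's median was -0.098 and differed from that of all genes in the fit by -0.068. With no filter beyond 1 count the difference was -0.66. In the order upper-quartile, library size, protein-coding genes alone, the medians were 0.015, -0.50 and -0.078 for the large subunit, so that the sign reversed in the first, and -0.092, -0.60 and -0.19 for the small. On the family scale they were -0.037 and -0.14. The offset gave -0.48 for the large subunit, and leaving out 1 library gave -0.38 to -0.17 for the small. In that order the medians were -0.17, -0.70 and -0.27 for mitochondrial ribosomal proteins, -0.0998, -0.61 and -0.19 for the proteasome, 0.27, -0.25 and 0.17 for elongation factors and other TOP genes (both positive values reverse the sign), -0.019, -0.52 and -0.11 for ribosome assembly, and -0.12, -0.62 and -0.21 for chaperones and sensors. For genes controlling TOP mRNAs it was -0.15 with upper-quartile factors, -0.25 with protein-coding genes alone and -0.63 to -0.28 with 1 library left out. With the offset the medians were -0.68 for the proteasome, -0.24 for the TOP genes and -0.059 for chaperones. Leave-one-out medians were -0.53 to -0.26 for the proteasome, -0.078 to -0.0082 for the TOP genes and -0.47 to -0.30 for chaperones. The log2 ratio of the family's share of counts was -0.23 over protein-coding counts and -0.24 without Lars2, Gm15564 and identifiers with no symbol.

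With the replicate number as a block (replicate block) there were 26 lower calls in the family (35.6%, against 25.6% of all genes), 16 large and 10 small, and with the offset as well 41 (56.2%, against 25%), of which 26 large and 15 small, with a large subunit median of -0.47. The labels do not say that the numbers pair the libraries, and with 2 pairs the deviations of same-numbered libraries correlated at 0.33. Over 32 named members and 607 values under an alternative, 504 kept the direction and the side of the threshold, 39 lost the call, 26 gained it and 38 reversed the sign, in each case for a member that was called neither with nor without the alternative.

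The reversed log2 fold changes were these. With upper-quartile factors they were 0.063 for Rpl13, 0.23 for Rpl8, 0.094 for Rps14, 0.068 for Rpsa and 0.22 for Rpl41, and on the family scale 0.010, 0.18, 0.041, 0.014 and 0.17 in the same order. With protein-coding genes alone they were 0.13 for Rpl8, 0.0015 for Rps14 and 0.12 for Rpl41. With library size they were -8e-04 for Rps7, -0.019 for Rpl24, -0.21 for Rplp0 and -0.058 for Rps24. With the offset they were -0.13 for Rps26, -0.12 for Rpl37, -0.040 for Rpl27a, -0.069 for Rps7, -0.16 for Rpl24, 0.24 for Rpl8 and -0.11 for Rps24, and with the replicate block as well -0.12, -0.12, -0.033, -0.070, -0.19, 0.24 and -0.11 in the same order. Rpl29 had 0.13 with copies and 0.10 with named pseudogenes added. Rplp0 had -0.077 with no filter beyond 1 count. With 1 library left out Rplp0 had -0.029 (without BUS library 2) to 0.052 and Rpl24 -0.15 (without ULA library 1) to 0.45, Rpl8 had 0.016 without BUS library 1, and Rpl41 had 0.030 without ULA library 1.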

Other observations

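The libraries of a group differed in the same direction. Of the 73 members, 63 had fewer CPM in ULA library 2 than in ULA library 1, and 68 had fewer in BUS library 2 than in BUS library 1. Summed macrophage markers were 164 and 113 CPM in ULA libraries and 504 and 126 CPM in BUS libraries. Summed Sertoli cell markers were 2396 and 1497 CPM in ULA and 7522 and 3849 CPM in BUS. In both lists library 1 had the higher values in each group. Proteasome subunits went the other way in both groups (4538 and 4688 CPM in ULA, 4445 and 4486 CPM in BUS). So did markers of condensing spermatids (11560 and 16950 CPM in ULA, 4714 and 6582 CPM in BUS). The labels do not say that the numbers pair the libraries. Whether these differences are linked was not tested.

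For some members, among them Rpl26, Rps2 and Rps10, more counts lay on pseudogenes than on the gene. Copies of Rpl26 held 3991 and 3407 counts in ULA libraries and 3421 and 3741 in BUS libraries, where Rpl26 itself had 200 and 189 counts in ULA and 257 and 284 in BUS. Copies of Rps2 held 2432 and 1805 counts in ULA libraries and 4764 and 3976 in BUS libraries, beside 139 and 71 for Rps2 in ULA and 211 and 192 in BUS. Copies of Rps10 held 414 and 287 counts in ULA libraries and 744 and 685 in BUS libraries, beside 43 and 21 for Rps10 in ULA and 130 and 64 in BUS. These 3 were singled out after their values were seen.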
